A study of Homo sapiens with 8 samples.

Results

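The genes described here are those of DNA replication and of S phase entry in 2 human myeloma cell lines. The list holds 51 symbols, and each gene was taken from the array row that the platform annotation names with its symbol, using the row of highest mean level where there was more than 1. Of the 51 genes, 25 had a named row, and all 25 were above the level filter and were tested among 12734 genes. The other 26 have no row named for them here and were not analysed. They are all 6 subunits of the origin recognition complex, geminin (GMNN), the polymerase and primase genes POLA1, POLA2, PRIM1, PRIM2, POLD1, POLD2, POLD3, POLE and POLE2, the clamp loader genes RFC1 to RFC5, the single-strand binding genes RPA1 to RPA3, the ligase gene LIG1 and the thymidine kinase gene TK1. Origin recognition, the polymerases and the clamp loader are therefore not described, while licensing is read by 2 of 3 listed genes, the MCM2-7 helicase by 6 of 6, its CMG partners by 5 of 5, nucleotide supply by 3 of 4 and the E2F, cyclin E and UHRF1 group by 6 of 6. MCM8, MCM10 and the sliding clamp gene PCNA complete the 25.

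Levels are the authors' log2 values, measured in total RNA on the Affymetrix Human Gene 2.0 ST array. The 4 groups of 2 arrays each were NCI-H929 with a short hairpin against SIRT6 (shSIRT6), NCI-H929 with a scramble hairpin, MM1.S with shSIRT6 and MM1.S with scramble. SIRT6 is an NAD-dependent deacetylase of chromatin, and the comparison asks which genes differ once it is silenced in each line. Both lines are established multiple myeloma lines grown in the same serum-supplemented medium. The sources used here do not give the hairpin's sequence, how many hairpins were used, the vector or the time from delivery to harvest. Whether both arrays of a group stem from separate cultures is not stated in the labels, so the p-values reflect the spread between arrays, and this may be technical.

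A cell copies its genome once per cycle by separating the loading of the replicative helicase from its start. In G1, CDC6 and CDT1 load the ring of MCM2 to MCM7 onto origins, a step called licensing. In S phase, CDC45 and the GINS complex join the ring to form the active helicase, CMG, and the clamp encoded by PCNA holds the polymerases on DNA. Nucleotides for the new strands come from ribonucleotide reductase (RRM1, RRM2) and from thymidylate synthase (TYMS). Many of these genes are known targets of the E2F transcription factors, which are released at the G1 to S transition when cyclin E and its partner kinase phosphorylate the retinoblastoma protein. In RNA from whole cultures, fewer cells in S phase and less mRNA per cell cannot be told apart.

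Most of the promoters that could be read carried an E2F octamer. Windows of 300 bases, 250 before and 50 after the transcription start, were taken from RefSeq (GRCh38.p14) and searched on both strands for 4 letter forms of the E2F site, TTTCCCGC, TTTGGCGC, TTTCGCGC and TTTGCCGC. A palindromic stretch such as that of MCM2 can hold the same form on both strands in overlapping positions. Of the 25 genes, 20 had a window and 15 of these held at least 1 octamer (75%), against 5.69% of all tested genes with a window (542 of 9530). Counted by window, the shares were 57.1% (16 of 28) and 4.3%. Of the other replication and S phase genes described below, 36.8% of those with a window held an octamer (14 of 38). For the mitosis genes described below the share was 13.0% (3 of 23). CDC45, MCM10, RRM1, RRM2 and CCNE1 had a window without any of these letters, and MCM4, MCM5, GINS4, E2F8 and CCNE2 had no window. A match is a stretch of letters and was not tested as a binding site. The sequences below are shown because 5 of them belong to genes with low p-values for the hairpin that hold an octamer, and they place the octamer relative to the start. Genes without an octamer were passed over, RRM2 among them, although it was among the 4 genes of lowest p in NCI-H929. Whether octamers go with the hairpin difference was not tested. All sequences are written 5′ to 3′ on the gene's strand, with octamers in capitals. For GINS2 (chr16:85688955-85689204, minus strand) and TYMS (chr18:657403-657652, plus strand) the 250 bases before the start are shown.
GINS2: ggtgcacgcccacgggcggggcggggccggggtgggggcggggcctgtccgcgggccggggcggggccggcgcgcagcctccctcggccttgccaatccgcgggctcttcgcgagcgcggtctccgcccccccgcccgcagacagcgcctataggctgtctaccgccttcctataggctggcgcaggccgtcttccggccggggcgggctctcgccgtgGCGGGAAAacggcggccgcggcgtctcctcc
TYMS: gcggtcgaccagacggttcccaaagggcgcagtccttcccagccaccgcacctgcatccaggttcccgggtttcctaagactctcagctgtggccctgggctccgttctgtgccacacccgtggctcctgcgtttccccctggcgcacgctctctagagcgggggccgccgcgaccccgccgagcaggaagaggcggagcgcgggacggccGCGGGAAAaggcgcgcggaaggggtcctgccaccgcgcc
The octamer of GINS2 lies 31 to 24 bases before the start and that of TYMS 39 to 32 bases before it, both as TTTCCCGC read on the opposite strand. For CDC6 (chr17:40287875-40287904), MCM8 (chr20:5950667-5950696) and MCM2 (chr3:127598404-127598433), all on the plus strand, the octamers lie just after the start and 30 bases around them are shown.
CDC6: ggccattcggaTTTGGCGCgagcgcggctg
MCM8: ggatcactgaaGCGCCAAAaaagaatttag
MCM2: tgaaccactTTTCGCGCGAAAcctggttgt
The octamer of CDC6 covers bases 8 to 15 after the start and that of MCM8 bases 27 to 34, while MCM2 has TTTCGCGC on both strands at bases 3 to 10 and 7 to 14. MCM6 (chr2:135876444-135876693, minus strand) was added after its values were seen, because it was the gene of lowest p among those lower with shSIRT6 in MM1.S.
MCM6: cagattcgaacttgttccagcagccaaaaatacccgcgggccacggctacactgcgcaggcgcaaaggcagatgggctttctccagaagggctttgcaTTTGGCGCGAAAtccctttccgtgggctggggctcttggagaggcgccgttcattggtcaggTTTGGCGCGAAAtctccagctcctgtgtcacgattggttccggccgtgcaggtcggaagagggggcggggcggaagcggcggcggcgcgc
MCM6 holds 4 octamers in 2 pairs, each pair being TTTGGCGC overlapped by TTTCGCGC on the other strand, at 152 to 141 and 90 to 79 bases before the start.

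The arrays and the target gene were examined first. Arrays of a group correlated at 0.989 to 0.992 over all rows, those of a line under the 2 constructs at 0.985 to 0.989, and those of the 2 lines at 0.942 to 0.950, and no pair was a duplicate (at most 1.96% of values equal to 2 decimals). The SIRT6 row (16867260) read 6.25 and 6.31 in NCI-H929 shSIRT6, against 6.53 and 6.97 in NCI-H929 scramble. It read 5.60 and 5.78 in MM1.S shSIRT6, against 6.09 and 5.88 in MM1.S scramble. The hairpin arrays were lower in both lines without overlap, as were those of 10.5% of all genes. Neither difference of SIRT6 passed the test (−0.47 ± 0.161 and −0.295 ± 0.161 log2, SE, limma, Benjamini-Hochberg adjusted p = 0.276 and 0.355), so the target checks the labels only weakly. The difference was −0.25 in NCI-H929 without scramble replicate 2 of that line, and −0.19 in MM1.S without scramble replicate 1 of that line. Of 12 plasma cell markers 8 had a row, all above the filter level, and IRF4, XBP1, MZB1 and SLAMF7 read above 10 on every array. SDC1 and CD38 read 7.96 to 9.28, while POU2AF1 and CD27 read only 4.81 to 5.48. With the hairpin, limma called 1 of the 8 in MM1.S (1.33% of all genes) and 0 in NCI-H929 (0.0236%). Markers of T and NK cells (5 of 10 with a row), myeloid cells (6 of 8) and stroma and epithelium (3 of 8) had mean log2 levels of 4.22 to 4.57, 3.52 to 3.83 and 5.35 to 5.79 over all arrays. The rows of the last list were those of the epithelial markers EPCAM, KRT8 and KRT18, so stroma was not read. KRT18 alone read 7.73 to 8.14. The B cell markers (3 of 6 with a row: PAX5, CD22 and CR2) averaged 3.58 to 3.73 in NCI-H929, against 4.41 to 4.69 in MM1.S. Of these only CR2 separated the lines, at 3.59 to 3.97 in NCI-H929, against 6.22 to 6.77 in MM1.S. PAX5 (3.90 to 4.36 in NCI-H929, 3.77 to 4.19 in MM1.S) and CD22 (3.08 to 3.27 and 3.04 to 3.30) overlapped. The part of these markers in the differences between lines was not tested.

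In NCI-H929, all 25 replication genes had lower mean levels with shSIRT6 than with scramble, and the arrays of the 2 constructs did not overlap for 23 of them. The differences were small, with a median log2 difference of −0.36 (range −0.71 to −0.12), while the median over all 12734 genes was −0.05. None passed the Benjamini-Hochberg threshold of 0.05 in limma (0 of 25), where only 0.0236% of all genes did. At an unadjusted p below 0.05 the genes numbered 18, all lower, and the background share lower at that level was 9.75%. The background share for arrays that do not overlap on the lower side was 30%, and 58.1% of all genes had a difference below 0. The same contrast gave 9 calls, all lower, when limma's prior variance was allowed to follow the level of the gene (limma-trend, in which 1.35% of all genes were called lower). These 9 were TYMS, RRM2, CDC6, GINS2, MCM8, MCM7, MCM2, PCNA and GINS4, with adjusted p from 0.00117 for TYMS to 0.0469 for GINS4. The choice of variance prior therefore decides whether any gene is called in this line.

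**Figure D1:**
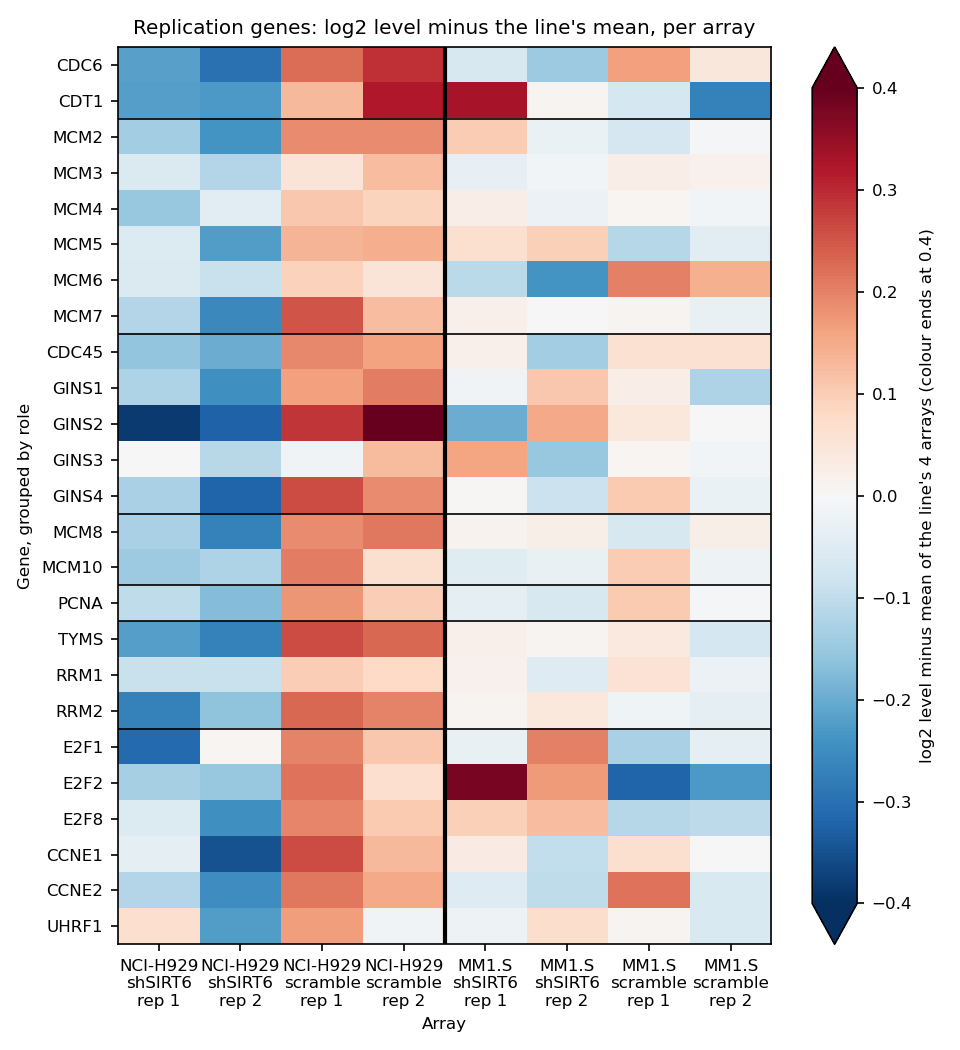
Log2 level of each of the 25 replication genes on each of the 8 arrays, minus the mean of that line's 4 arrays (colour, ending at 0.4 on either side), with genes grouped by role between horizontal lines. In NCI-H929 the 2 shSIRT6 columns are below the line's mean for 24 genes each and the 2 scramble columns above it for 24 each, while the MM1.S columns are mixed.

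The licensing factors were both lower in NCI-H929. CDC6, the ATPase that recruits CDT1 and the helicase to origins, read 8.25 and 8.17 with shSIRT6, against 8.69 and 8.76 with scramble. Its log2 difference was −0.515 ± 0.0987 (SE), a ratio of 0.70 (limma, adjusted p = 0.185). CDT1, which brings the MCM ring to the origin, read 7.53 and 7.52 with shSIRT6, against 7.88 and 8.07 with scramble. The arrays of both genes lay apart, and the difference for CDT1 was −0.45 ± 0.14 (adjusted p = 0.256).

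The 6 subunits of the MCM2-7 ring, the motor of the helicase, showed smaller differences, with a median of −0.24. MCM2 read 8.21 and 8.11 with shSIRT6, against 8.54 on both scramble arrays, a log2 difference of −0.38 ± 0.0981. MCM7 read 9.06 and 8.92 with shSIRT6, against 9.43 and 9.30 with scramble. MCM6 differed least, at 9.64 and 9.61 with shSIRT6 and 9.79 and 9.75 with scramble. Both shSIRT6 arrays were below both scramble arrays for all 6 subunits, and the other 3, MCM3, MCM4 and MCM5, had differences of −0.18, −0.20 and −0.28.

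Among the partners that turn the ring into CMG, GINS2 had the largest difference of all 25 genes. GINS2, also called PSF2, is a subunit of the 4-protein GINS complex. It read 6.92 and 6.98 with shSIRT6, against 7.59 and 7.72 with scramble, and the level with shSIRT6 was 0.613 of that with scramble (log2 difference −0.705 ± 0.132, adjusted p = 0.185). GINS4 was at −0.45 ± 0.11 and GINS1 at −0.37 ± 0.106, while GINS3 was at −0.115 ± 0.127 with overlapping arrays (7.48 and 7.37 with shSIRT6, 7.47 and 7.61 with scramble). CDC45, which joins the ring together with GINS, read 7.24 and 7.20 with shSIRT6, against 7.59 and 7.56 with scramble. The arrays lay apart for 4 of these 5 genes, and the subunits of GINS differed in the size of their difference.

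MCM8, a relative of the ring subunits with a role in recombination repair, read 7.91 and 7.77 with shSIRT6, against 8.23 and 8.25 with scramble. MCM10, which helps to activate CMG, read 8.30 and 8.32 with shSIRT6, against 8.65 and 8.51 with scramble. PCNA, the sliding clamp, read 9.37 and 9.30 with shSIRT6, against 9.65 and 9.57 with scramble. All 3 were lower on both hairpin arrays, by 0.40, 0.27 and 0.28 on the log2 scale. None of them was called in limma, and limma-trend called MCM8 (adjusted p = 0.0147) and PCNA (adjusted p = 0.0337).

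The genes of nucleotide supply split by the size of their difference. TYMS, which makes thymidylate, read 9.30 and 9.25 with shSIRT6, against 9.78 and 9.75 with scramble, a log2 difference of −0.49 ± 0.0929 (ratio 0.712, adjusted p = 0.185). RRM2, the small subunit of ribonucleotide reductase whose level is limiting in S phase, read 9.37 and 9.48 with shSIRT6, against 9.87 and 9.84 with scramble (−0.43 ± 0.0924, adjusted p = 0.191). RRM1, the large subunit, read 8.98 on both shSIRT6 arrays, against 9.17 and 9.15 with scramble (−0.18 ± 0.0914, adjusted p = 0.406). The arrays did not overlap for any of the 3, and for each the gap between constructs was several times the gap between arrays of a group.

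The regulators were lower to a similar degree. E2F1 and E2F2, activating E2F factors, were at −0.305 ± 0.138 and −0.285 ± 0.112, and E2F8, a repressing E2F factor that is itself made in S phase, was at −0.30 ± 0.103. CCNE1 and CCNE2, the E cyclins, were at −0.39 ± 0.129 and −0.365 ± 0.12. UHRF1, which reads hemimethylated DNA behind the fork and recruits the maintenance methyltransferase, was at −0.155 ± 0.128 and its arrays overlapped (7.35 and 7.06 with shSIRT6, 7.45 and 7.27 with scramble). E2F1 had uneven hairpin arrays, at 7.14 and 7.46, against 7.65 and 7.56 with scramble. So did CCNE1, at 7.57 and 7.26 with shSIRT6, against 7.87 and 7.74 with scramble, and the arrays of both genes still lay apart.

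Several measures moved with this contrast, and their part in it was not tested. Values over all rows were spread less on the shSIRT6 arrays (SD 2.04 to 2.06) than on the scramble arrays (2.08 to 2.10), and genes of higher level sat below 0 as a class. In NCI-H929 the 16 replication genes with a mean level between 7 and 9 had a median of −0.36, against −0.11 for all 2781 genes of that band, and the 8 above 9 had −0.24, against −0.06 for all 701. When the arrays were quantile normalized again the 25 genes remained below 0 in NCI-H929, with a median of −0.24. The T and NK markers with a row averaged 4.56 to 4.57 with shSIRT6 in NCI-H929, against 4.22 to 4.35 with scramble, and 0 of the 5 were called.

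In MM1.S the replication genes had no common direction. Of the 25, 11 were below 0 and 14 above it with shSIRT6, where 48.8% and 50.4% of all genes were, and their median of 0.005 equalled that of all genes. None was called (0 of 25, against 1.33% of all genes), limma-trend called 2 (7.48% of all genes), and 3 had an unadjusted p below 0.05, where 19.6% of all genes did. Arrays lay apart on the higher side for 6 genes and on the lower side for 6, against 24.4% and 26.3% of all genes. These shares are close to, or below, those of all genes.

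The gene of lowest p in MM1.S was E2F2, which read 8.45 and 8.24 with shSIRT6, against 7.75 and 7.84 with scramble. Its log2 difference of 0.55 ± 0.112, a ratio of 1.46, narrowly missed the threshold (limma, adjusted p = 0.0674), and it was called higher with limma-trend (adjusted p = 0.00296) and with a filter at the 50th percentile. E2F8 read 8.59 and 8.62 with shSIRT6, against 8.38 and 8.39 with scramble (0.22 ± 0.103, adjusted p = 0.291). Both E2F genes had arrays that lay apart, in the direction opposite to that in NCI-H929. CDT1 was also higher on both hairpin arrays of MM1.S, at 6.86 and 6.54, against 6.46 and 6.26 with scramble. Its difference of 0.34 ± 0.14 (adjusted p = 0.240) was 0.18 without shSIRT6 replicate 1 of that line and 0.50 without replicate 2, so that its size depends on single arrays.

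MCM6 stood apart from the other ring subunits in MM1.S. It read 9.81 and 9.68 with shSIRT6, against 10.12 and 10.06 with scramble, a log2 difference of −0.345 ± 0.0955 (limma, adjusted p = 0.120), and limma-trend called it lower (adjusted p = 0.00338). The other 5 subunits lay between −0.05 and 0.16, and MCM5 was the highest of them, at 8.88 and 8.91 with shSIRT6, against 8.70 and 8.77 with scramble. CDC6 was lower in MM1.S as well, at 8.84 and 8.76 with shSIRT6, against 9.07 and 8.95 with scramble (−0.21 ± 0.0987, adjusted p = 0.292). The 3 genes of nucleotide supply stayed within 0.06 of 0 in this line. GINS2, the gene with the largest difference in NCI-H929, read 6.72 and 7.07 with shSIRT6 in MM1.S, against 6.96 and 6.92 with scramble, so that its hairpin arrays lay on either side of the scramble arrays.

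**Figure D2:**
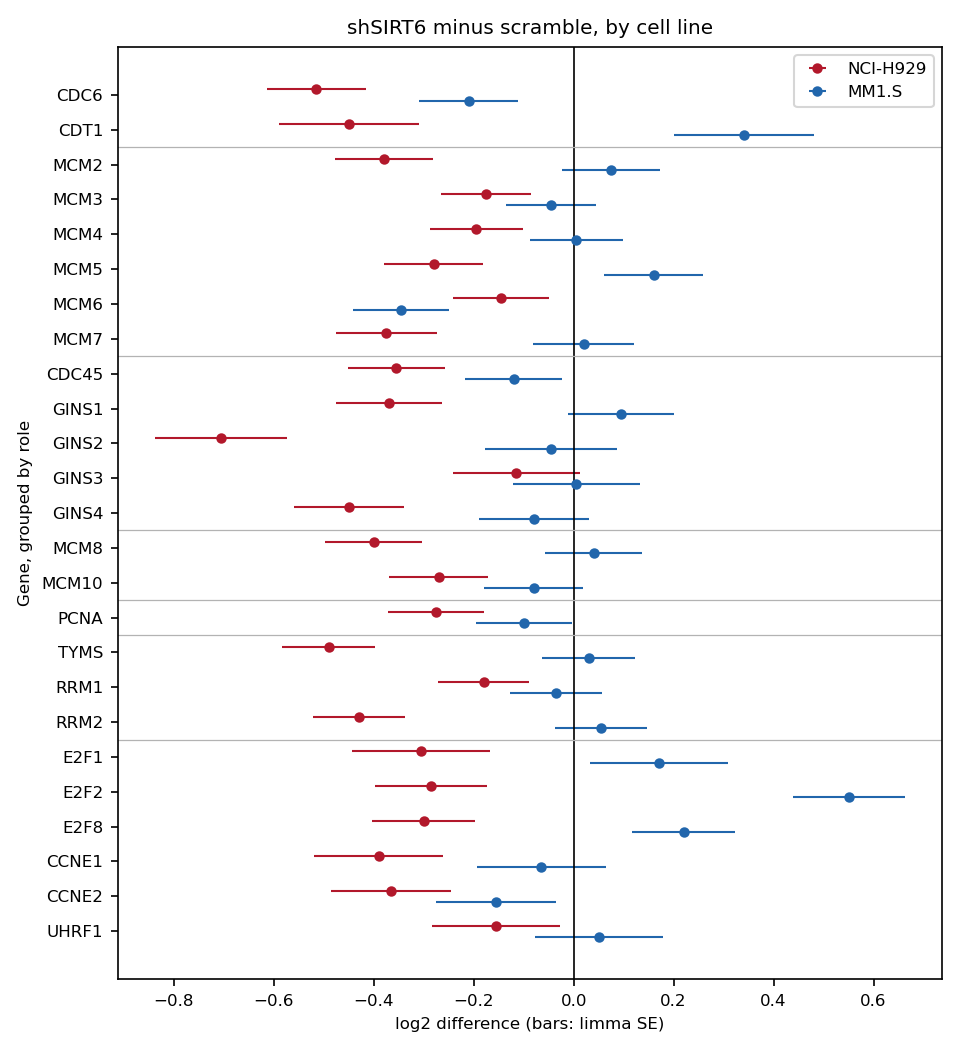
Log2 difference, shSIRT6 minus scramble, of the 25 replication genes in NCI-H929 (red) and MM1.S (blue), with limma standard errors as bars and genes grouped by role. Every NCI-H929 point lies below 0, from −0.71 for GINS2 to −0.12 for GINS3, while MM1.S points lie on both sides, from −0.35 for MCM6 to 0.55 for E2F2.

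The difference between the lines in the hairpin effect (NCI-H929 minus MM1.S) was below 0 for 24 of the 25 genes, where 54.4% of all genes were, with MCM6 (0.20) the exception. Its median over the genes was −0.37, against −0.04 over all genes. No gene was called for this difference in limma (0 of 25, against 0.204% of all genes), and 13 had an unadjusted p below 0.05, all lower, where 8.11% of all genes were lower at that level. With limma-trend 10 genes were called lower (1.79% of all genes), namely TYMS, E2F2, RRM2, E2F8, CDT1, MCM8, MCM2, MCM5, MCM7 and GINS2. The difference between lines thus passed the test only under the prior that follows level.

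For 6 genes the arrays lay apart in opposite directions, lower with shSIRT6 in NCI-H929 and higher with it in MM1.S, and 6.24% of all genes did so. They were CDT1, MCM5, RRM2, E2F1, E2F2 and E2F8, so that all 3 E2F factors of the list were among them. The same 6 are all the genes of the list that lay apart on the higher side in MM1.S, where 24.4% of all genes did. Nearly all 25 lay apart on the lower side in NCI-H929, so the count restates the results of each line and is no further support for opposite effects. The effect on E2F2 differed by −0.835 ± 0.159 on the log2 scale (limma, adjusted p = 0.116) and that on CDT1 by −0.79 ± 0.198 (adjusted p = 0.195). TYMS and RRM2 followed at −0.52 ± 0.131 (adjusted p = 0.196) and −0.485 ± 0.131 (adjusted p = 0.211). E2F1 read 7.41 and 7.64 with shSIRT6 in MM1.S, against 7.31 and 7.40 with scramble, so that its nearest arrays almost met. The same held for RRM2 in MM1.S, at 10.35 and 10.38 with shSIRT6, against 10.32 and 10.30 with scramble. Its difference there was only 0.055 ± 0.0924. Across the 25 genes the effects in the 2 lines had a Pearson correlation of −0.03 (n = 25 genes, which are not independent, measured on separate arrays of the 2 lines).

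**Figure D3:**
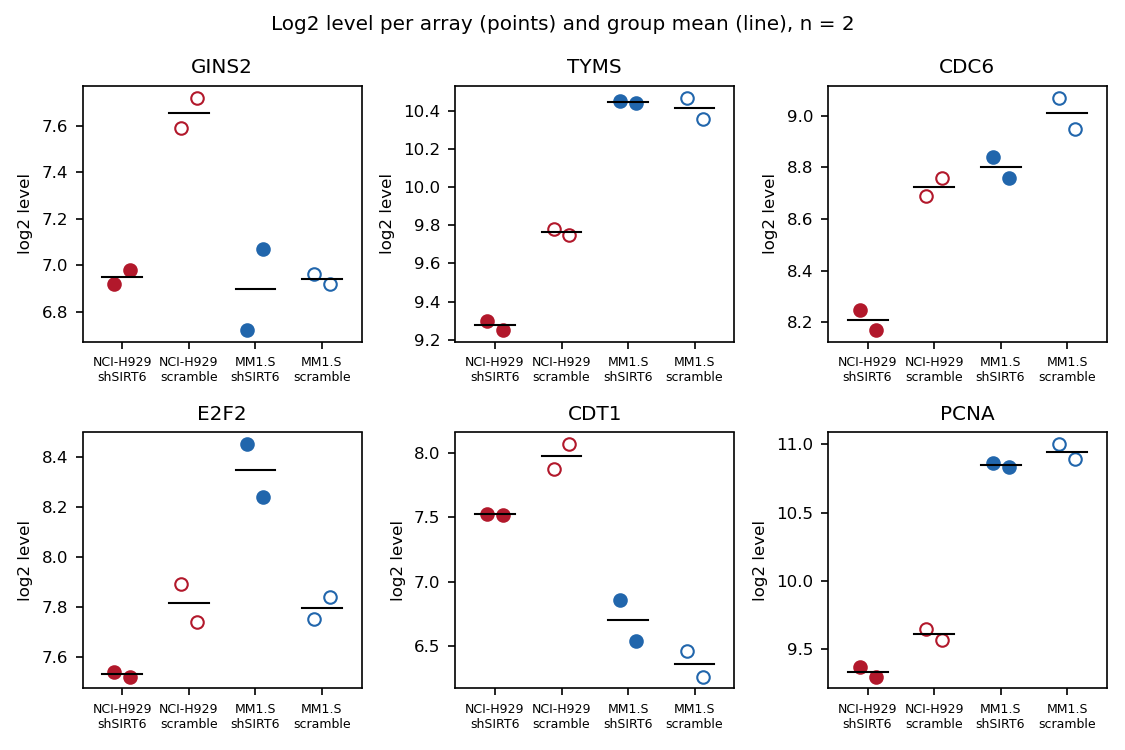
Log2 level per array (points, n = 2 per group) and group mean (line) of GINS2, TYMS, CDC6, E2F2, CDT1 and PCNA, with NCI-H929 in red, MM1.S in blue, shSIRT6 filled and scramble open. Axes differ between panels and do not start at 0. E2F2 and CDT1 are lower with shSIRT6 in NCI-H929 and higher with it in MM1.S, and PCNA differs far more between lines than between constructs.

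Averaged over both lines, 24 of the 25 genes were lower with shSIRT6 (54.7% of all genes were), with a median of −0.18, against −0.02 over all genes. E2F2 was the exception at 0.13. None was called in limma (0 of 25, against 0.0864% of all genes), 13 had an unadjusted p below 0.05, all lower (13.6% of all genes), and limma-trend called 10 lower (6.09% of all genes). This direction depends on scaling for some genes, since 18 of the 25 were below 0 after renewed quantile normalization and the median was then −0.11. By line the medians were −0.36 in NCI-H929 and 0.005 in MM1.S, so a mean below 0 does not by itself show an effect in both lines. Arrays of both lines lay apart on the lower side for 6 genes, CDC6, MCM3, MCM6, CDC45, MCM10 and PCNA, where 10.5% of all genes did. These are all the genes of the list that lay apart on the lower side in MM1.S, where 26.3% of all genes did. Their count therefore restates the results of each line and is no further support for a shared effect. CDC6 came nearest to the threshold with −0.363 ± 0.0698 (adjusted p = 0.0772), ahead of GINS2 at −0.375 ± 0.093 (0.103), MCM6 at −0.245 ± 0.0675 (0.118) and TYMS at −0.23 ± 0.0657 (0.126). Among the regulators CCNE2 had the lowest p for the mean of the lines, at −0.26 ± 0.0848 (0.153). In NCI-H929 it read 6.50 and 6.37 with shSIRT6, against 6.83 and 6.77 with scramble, and in MM1.S it read 6.80 and 6.75 with shSIRT6, against 7.07 and 6.79 with scramble. The constructs overlapped for CCNE2 in MM1.S but not in NCI-H929.

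More of the 25 genes were called between the lines than between the constructs. With scramble, limma called 13 different between NCI-H929 and MM1.S, where 38.3% of all genes were called. Of these, 10 were lower in NCI-H929 (18.3% of all genes) and 3 were higher (20% of all genes), and the median over the 25 was −0.15, against 0.03 over all genes. That median is nearer 0 than the −0.36 of the hairpin in NCI-H929, but differences between the lines ran in both directions, from −1.625 to 1.615. Those of the hairpin in NCI-H929 ran from −0.705 to −0.115, so the medians do not rank the contrasts by size of difference. With shSIRT6, 18 differed (37.9% of all genes), 17 lower (19.5%) and 1 higher (18.4%), with a median of −0.59, against 0.00 over all genes. With limma-trend 15 genes were called with scramble (41.8% of all genes), MCM4 and CDC6 being the additions, both lower, and 19 with shSIRT6 (41.1% of all genes). The comparisons within scramble and within shSIRT6 use separate arrays, and the shift between their medians restates the difference in hairpin effect given above, so it is no further support for it.

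Both genes with the largest deficits in NCI-H929 lie on chromosome 20. MCM8 read 8.23 and 8.25 in NCI-H929 scramble, against 9.82 and 9.91 in MM1.S scramble, which is 0.324 of the MM1.S level (−1.625 ± 0.0973, limma, adjusted p = 1.97e-05). PCNA read 9.65 and 9.57 in NCI-H929 scramble, against 11 and 10.89 in MM1.S scramble, a ratio of 0.396 (−1.335 ± 0.096, adjusted p = 4.92e-05). GINS1, also on chromosome 20, read 7.01 and 7.05, against 8.01 and 7.86 (−0.905 ± 0.106, adjusted p = 0.000446). For all 3 the lines lay far apart compared with the spread of arrays, and with shSIRT6 the ratios for MCM8, PCNA and GINS1 were 0.239, 0.351 and 0.387.

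CDT1 went the other way. It read 7.88 and 8.07 in NCI-H929 scramble, against 6.46 and 6.26 in MM1.S scramble, which is 3.06 times the MM1.S level (1.615 ± 0.14, adjusted p = 0.000114). It was the only gene called higher in NCI-H929 with shSIRT6 too, at 1.77 times (0.825 ± 0.14, adjusted p = 0.00267). GINS2 was higher in NCI-H929 scramble by 0.715 ± 0.132 (7.59 and 7.72, against 6.96 and 6.92 in MM1.S scramble; adjusted p = 0.00385), but with shSIRT6 the difference was 0.055 ± 0.132 (6.92 and 6.98, against 6.72 and 7.07; adjusted p = 0.784). GINS4 was higher by 0.52 ± 0.11 in NCI-H929 scramble (7.62 and 7.55, against 7.13 and 7.0; adjusted p = 0.0073). The call for GINS4 was lost when its 2 rows were averaged (0.23, adjusted p = 0.291). The other row read 2.65 to 3.67 over the 8 arrays, around the filter level of 3.045. The GINS genes were thus split between lines, with GINS1 lower in NCI-H929, GINS2 and GINS4 higher and GINS3 at 0.13 without a call.

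The nucleotide supply genes were all lower in NCI-H929 scramble. TYMS read 9.78 and 9.75 there, against 10.47 and 10.36 in MM1.S scramble (−0.65 ± 0.0929, adjusted p = 0.00116). RRM1 read 9.17 and 9.15, against 9.81 and 9.73 (−0.61 ± 0.0914, adjusted p = 0.00145), and RRM2 read 9.87 and 9.84, against 10.32 and 10.30 (−0.455 ± 0.0924, adjusted p = 0.00614). With shSIRT6 the differences were −1.17 for TYMS, −0.755 for RRM1 and −0.94 for RRM2. None of the arrays of the 2 lines overlapped for these genes. Of all genes, 31.9% lay apart on the lower side with scramble and 33.2% with shSIRT6.

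In the ring, MCM3 and MCM6 were lower in NCI-H929 scramble. MCM3 read 9.35 and 9.42 there, against 9.93 and 9.92 in MM1.S scramble (−0.54 ± 0.0905, adjusted p = 0.00246), and MCM6 read 9.79 and 9.75, against 10.12 and 10.06 (−0.32 ± 0.0955, adjusted p = 0.0321). The other 4 subunits lay between −0.24 and 0.02 and were not called in limma, while limma-trend called MCM4 lower (−0.24, adjusted p = 0.00387). With shSIRT6 all subunits but MCM6 were called lower, with differences of −0.67 for MCM3, −0.605 for MCM2, −0.44 for MCM4, −0.42 for MCM5 and −0.41 for MCM7. MCM6, with −0.12 ± 0.0955 (adjusted p = 0.379), was the subunit whose gap between lines was smaller with the hairpin.

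Of the regulators, CCNE1 and UHRF1 were lower in NCI-H929 scramble. CCNE1 read 7.87 and 7.74 there, against 8.46 and 8.40 in MM1.S scramble (−0.625 ± 0.129, adjusted p = 0.00654). UHRF1 read 7.45 and 7.27, against 7.89 and 7.82 (−0.495 ± 0.128, adjusted p = 0.0176), and its call was lost when MM1.S scramble replicate 1, MM1.S scramble replicate 2 or NCI-H929 scramble replicate 2 was left out. The arrays of both genes lay apart between lines, as did those of 31.9% of all genes on the lower side. The E2F factors showed no called difference with scramble, at 0.25 ± 0.138 for E2F1, 0.02 ± 0.112 for E2F2 and −0.10 ± 0.103 for E2F8. With shSIRT6, E2F2 read 7.54 and 7.52 in NCI-H929, against 8.45 and 8.24 in MM1.S (−0.815 ± 0.112, adjusted p = 0.000965), and E2F8 read 8.08 and 7.89, against 8.59 and 8.62 (−0.62 ± 0.103, adjusted p = 0.00241). Levels of E2F2 and E2F8 were thus near each other in the lines with scramble and apart with shSIRT6. E2F1 was higher in NCI-H929 scramble, with arrays that lay apart (7.65 and 7.56, against 7.31 and 7.40 in MM1.S scramble). On that side 36% of all genes lay apart. The arrays of E2F8 also lay apart with scramble, narrowly and on the lower side (8.33 and 8.24 in NCI-H929, against 8.38 and 8.39 in MM1.S). With shSIRT6 the arrays of E2F1 overlapped (7.14 and 7.46 in NCI-H929, against 7.41 and 7.64 in MM1.S; −0.225 ± 0.138, limma, adjusted p = 0.252).

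**Figure D4:**
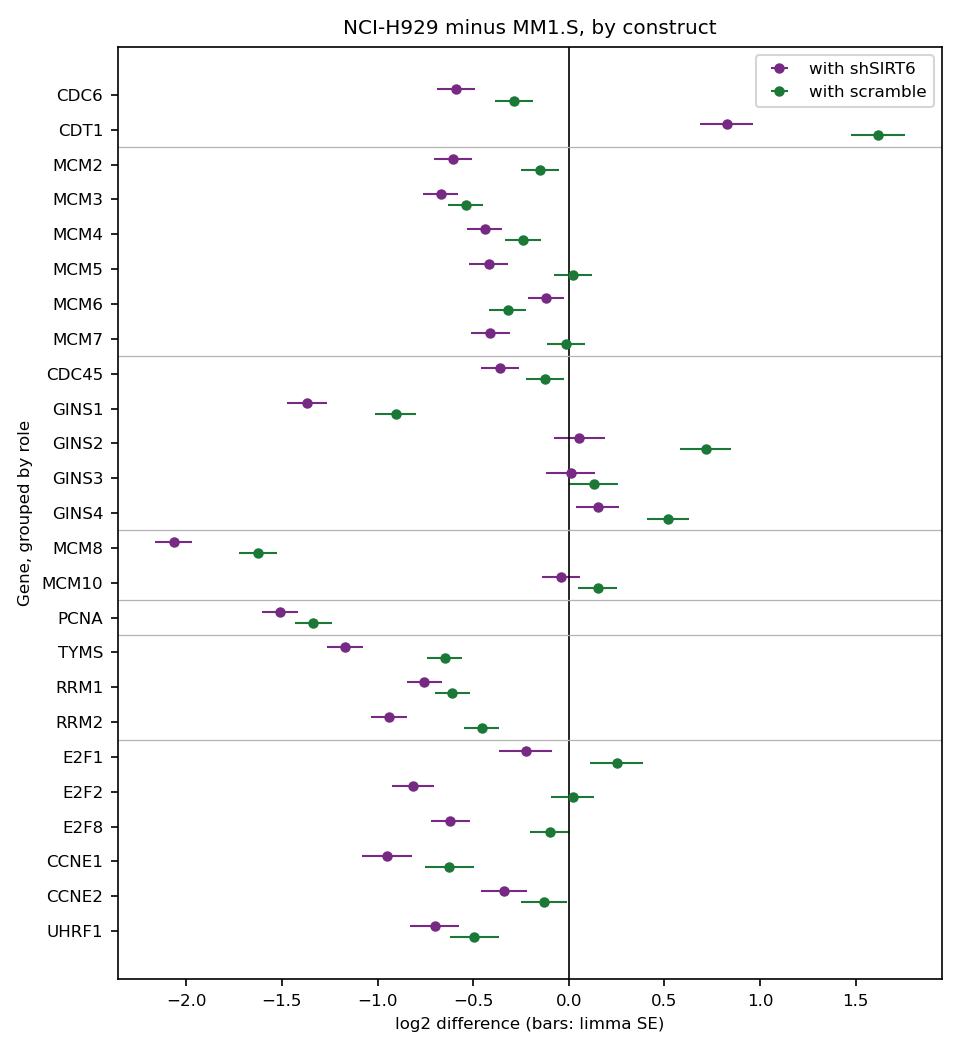
Log2 difference, NCI-H929 minus MM1.S, of the 25 replication genes with shSIRT6 (purple) and with scramble (green), with limma standard errors as bars. MCM8, PCNA and GINS1 lie lowest with both constructs and CDT1 highest, and the purple point lies left of the green one for every gene except MCM6.

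Other genes of replication and S phase were read from another list of 63 symbols, 44 of them tested, and genes of mitosis from a list of 34 symbols, 27 tested. In NCI-H929, 40 of the 44 and 27 of the 27 were below 0 with shSIRT6 (58.1% of all genes), with medians of −0.22 and −0.28. At an unadjusted p below 0.05 they numbered 20 and 17, all lower, where 9.75% of all genes were lower. In MM1.S the medians were −0.02 and 0.04. None was called in either line, in their mean or in their difference (0 of 44 and 0 of 27 in each, limma). The shares of all genes called were 0.0236% in NCI-H929, 1.33% in MM1.S, 0.0864% in the mean and 0.204% in the difference. Limma-trend called 10 of the 44 and 11 of the 27 in NCI-H929 (1.52% of all genes), 1 and 6 in MM1.S (the 7.48% given above), 8 and 5 in the mean (7.15%) and 5 and 10 in the difference (3.38%), so both of these lists gain calls under that prior as well. In NCI-H929 the lowest p on the first list were those of TICRR (treslin, which helps to load CDC45; −0.62 ± 0.0929, adjusted p = 0.158) and of DNA2, a nuclease of Okazaki fragments (−0.565 ± 0.12, adjusted p = 0.191). The lowest on the second was that of FOXM1, a transcription factor of G2 and M phase genes (−0.59 ± 0.118, adjusted p = 0.185). FOXM1 was at 0.385 ± 0.118 in MM1.S, and its difference between lines was −0.975 ± 0.167 (adjusted p = 0.0912). MKI67, which encodes the Ki-67 protein of cycling cells, was at −0.335 ± 0.0935 in NCI-H929 and 0.405 ± 0.0935 in MM1.S. Mitosis genes as well as replication genes thus lay below 0 in NCI-H929, and no difference between the lists was tested.

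**Figure D5:**
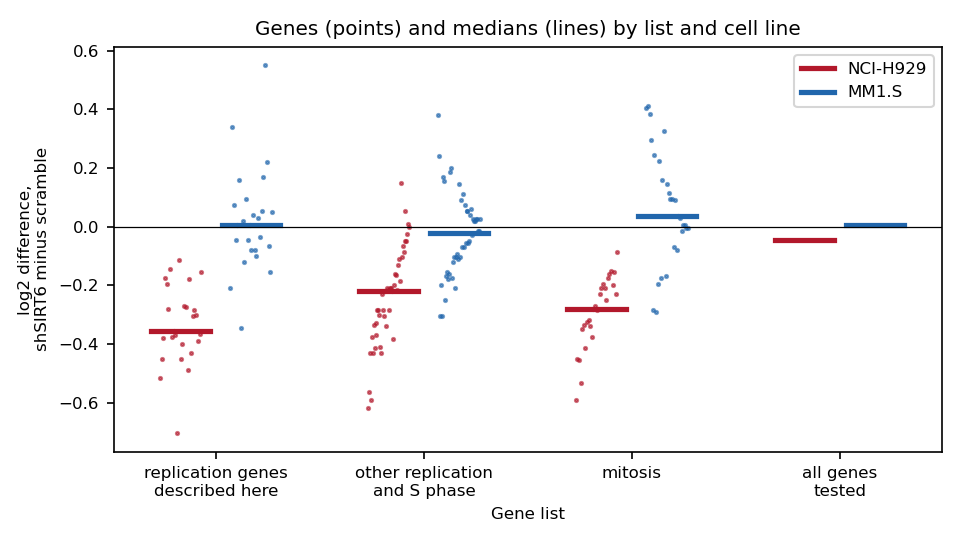
Log2 difference, shSIRT6 minus scramble, of single genes (points) with the list's median (line) in NCI-H929 (red) and MM1.S (blue), for the 25 replication genes, the 44 other replication and S phase genes, the 27 mitosis genes and, as medians only, all 12734 genes tested. In NCI-H929 the 3 lists have medians of −0.36, −0.22 and −0.28, against −0.05 for all genes, and in MM1.S all medians lie within 0.04 of 0.

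Between lines with scramble, 21 of the 44 other replication genes were called lower in NCI-H929 and 7 higher, and of the 27 mitosis genes 10 were called lower and 7 higher, where 18.3% of all genes were lower and 20% higher. The largest deficits with scramble were those of CDCA7, a chromatin factor induced at S phase entry (−3.18 ± 0.158, adjusted p = 8.28e-06), and of E2F7, the partner of E2F8 (−1.905 ± 0.144, adjusted p = 6.22e-05). On the mitosis list CDK1, the kinase that starts mitosis, was lower (−1.185 ± 0.116, adjusted p = 0.000194) and KIF20A, a mitotic kinesin, was higher (0.905 ± 0.0982, adjusted p = 0.000317). With shSIRT6, 29 of the 44 and 15 of the 27 were lower in NCI-H929 and 5 and 2 were higher, where 19.5% of all genes were lower and 18.4% higher. Calls on the list of other replication genes thus lay mostly on the lower side with both constructs. Those on the mitosis list were more evenly split with scramble and mostly lower with shSIRT6. A shift between constructs here restates the difference in hairpin effect and is no further support for it.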

How the data were processed

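The data are 8 arrays of 2 cell lines and 2 constructs, 2 arrays per group, grouped by the cell line and condition labels. The authors deposited log2 values, each row being a transcript cluster. RMA, the Transcriptome Analysis Console and hg19 are named per the submitters' processing notes, and the sources used here do not give the RMA variant or software versions. Scanner files were not used, so signal could not be set against background, and precision is limited by the number of arrays. Among 48226 rows, the platform annotation pairs 16098 with 1 gene symbol (14884 different symbols), 0 with several and 32128 with none. Columns of another series numbered 0.

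The row of highest mean was kept per gene, which mattered for 779 genes and for GINS4 alone among those described. Tests covered the 12734 genes whose mean exceeded log2 3.045, the 30th percentile over rows. Group means were fitted for the 4 groups over the 8 arrays with limma 3.58.1 (R 4.3.3) (residual degrees of freedom 4, prior 3.43, prior SD 0.128). Contrasts were shSIRT6 minus scramble in each line, their mean, their difference, and NCI-H929 minus MM1.S with each construct, and a gene counted as called where its p, Benjamini-Hochberg adjusted across the 12734, was below 0.05. An exact permutation of 2 arrays against 2 cannot give a two-sided p below 0.333. The code was tested on simulated data. Promoter windows and chromosomes came from RefSeq (GRCh38.p14), read with Python 3.11.15, and the log2 levels are not tied to that build.

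The genes and lists were chosen with earlier results of these data known. Per-array values are given for called genes, up to the 12 of lowest p in a contrast, or else the 4 of lowest p, for the gene of lowest mean-effect p in each role and for further genes of the list, all of which may be named. Outside the list, SIRT6, marker genes and up to 3 genes per other list and contrast are named. Up to 5 promoters of low-p genes with a site were to be shown. MCM6 was added. Alternatives were no filter, a 50th percentile filter, quantile and cyclic loess normalization, the mean of a gene's rows, limma-trend, robust eBayes, fits to the compared arrays alone, a replicate block and leaving out each array.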

Additional observations from a re-analysis of the deposited data

How the results depend on the processing

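The direction of the median kept its sign under every alternative in NCI-H929, in the mean of the lines, in their difference and between the lines with either construct, and in MM1.S it lay between −0.005 and 0.044. What depends on the processing is the call. With limma-trend 9 genes were called in NCI-H929, 10 in the mean, 10 in the difference between lines and 2 in MM1.S, where a filter at the 50th percentile called 1 (E2F2), against 0 each in the fit reported. Other alternatives called 0 in these 4 contrasts. Quantile normalization moved the median to −0.244 in NCI-H929 and −0.106 in the mean. Cyclic loess gave −0.276 in NCI-H929, −0.113 in the mean, −0.323 for the difference, 0.044 in MM1.S and −0.556 between lines with shSIRT6. The mean of a gene's rows gave −0.305 in NCI-H929 and −0.325 for the difference. Leaving out 1 array gave medians of −0.375 to −0.30 in NCI-H929, −0.005 to 0.03 in MM1.S, −0.178 to −0.145 in the mean and −0.43 to −0.275 for the difference. Between lines these medians ran from −0.63 to −0.525 with shSIRT6 (15 to 19 genes called) and from −0.25 to −0.15 with scramble (11 to 13 called), the lowest, −0.25, without MM1.S scramble replicate 2. The SIRT6 difference ran from −0.69 to −0.25 in NCI-H929, −0.40 to −0.19 in MM1.S and −0.492 to −0.273 in the mean, and it was not called in any of them. Its difference between lines ran from −0.395 to 0.045 and reversed to 0.045 without NCI-H929 scramble replicate 2, which also gave the −0.25. Of 720 values of single named genes under alternatives, 699 kept their side of the threshold, 17 passed it anew, 4 lost it (GINS4 and UHRF1) and 0 reversed. The causes were not tested. Fits to the compared arrays alone were not possible for the mean and the difference. Arrays that share a replicate number did not deviate together (correlations of −0.001 to 0.077). Whether the numbers pair the arrays cannot be told from this, since paired arrays without a shared shift would look the same. With the replicate number as a block the counts of genes called were 0 in the 4 hairpin contrasts, 12 between lines with scramble and 18 with shSIRT6, and the medians equalled those reported.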

Other observations

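Some of the largest differences between the lines were shared with neighbouring genes. For each of the 25 genes, up to 10 tested genes on either side by RefSeq order were read for NCI-H929 minus MM1.S with scramble, a description chosen after the values were seen. Of the 20 neighbours of MCM8 on chromosome 20, 12 were called lower in NCI-H929 and 0 higher, with a median of −0.74. Of the 20 neighbours of PCNA, 10 were called lower and 0 higher, with a median of −0.34. PCNA and MCM8 are each among the neighbours of the other and share 9 more, so these counts are not independent. Over all genes tested on chromosome 20, 18.7% were lower and 24.3% higher.

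The 3 genes called higher in NCI-H929 with scramble, CDT1, GINS2 and GINS4, differed in their neighbours. Of the 20 neighbours of CDT1 on chromosome 16, 15 were called higher and 0 lower (median 0.65), and of the 20 neighbours of GINS2, on the same chromosome with 0 neighbours shared, 10 were called higher and 1 lower (median 0.58). Over all genes tested on chromosome 16, 25.4% were higher and 10.8% lower. Of the 20 neighbours of GINS4 on chromosome 8, 5 were called higher and 4 lower (median 0.23, and −0.045 with shSIRT6), where 27.1% of all genes tested on that chromosome were higher and 11.3% lower. Both E cyclins differed from their surroundings. CCNE1, called lower at −0.625, had 8 of 20 neighbours on chromosome 19 called higher and 0 lower (median 0.205; 23.7% of that chromosome's genes were higher and 9.45% lower). CCNE2, also on chromosome 8, had 11 of 20 neighbours called higher and 2 lower while the gene itself was at −0.13. GINS1, lower in NCI-H929 by 0.905 on the log2 scale (−0.905), had neighbours with a median of −0.05, of which 5 were called lower and 3 higher. Over the 25 genes the difference of the gene and the median of its neighbours had a Pearson correlation of 0.74 (n = 25 genes, some of them neighbours of each other, all on the same 4 arrays).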
